A study of Mus musculus with 27 samples.

Results

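Imprinted genes that lie inside another gene were examined together with the genes that hold them. The members were 9 genes, of 13872 genes with at least 1 measured start in these data. The intronic genes were Mcts2 inside H13, Nap1l5 inside Herc3, Zrsr1 inside Commd1 and Nnat inside Blcap. Inpp5f was included as a host whose own intron holds an imprinted transcript. The members were chosen by name, and the positions used were those within each gene's span in assembly GRCm38 or 2 kb either side that were listed in at least 2 of 3 samples of every strain.

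DNA methylation was measured by reduced representation bisulfite sequencing (RRBS), which reads the CpG-rich part of the genome next to CCGG sites. The 27 samples were hepatocytes from the livers of female mice aged 12 weeks, for which the labels name no treatment, with 3 biological replicates of each of 9 inbred strains. The laboratory strains were C57BL/6J, DBA/2J, A/J, NOD/ShiLtJ, 129S1/SvImJ and NZO/HlLtJ, and the strains derived from wild mice were WSB/EiJ, PWK/PhJ and CAST/EiJ. None of them served as a control. Inbred mice carry the same sequence on both parental alleles, so the maternal and the paternal copy could not be told apart in any sample.

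Several of these intronic genes are retrogenes, that is, copies of a spliced messenger RNA put back into the genome. Mcts2 derives from the X-linked Mcts1, a translation factor, and Zrsr1 from the X-linked Zrsr2, a splicing factor. Nap1l5 belongs to a family of nucleosome assembly proteins. Each is described as methylated on the maternal copy and expressed from the paternal copy, while the start of its host gene is described as unmethylated. A locus methylated on a single parental copy gives an intermediate level in a bulk sample, whereas an ordinary CpG island start gives a level near 0. Nnat, which encodes the small membrane protein neuronatin, is imprinted in the same way but is known mainly from neural tissue.

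The promoters below show part of the CpGs behind the results, but that of Nap1l5 holds no listed position. They are RefSeq promoters of GRCm38.p6, from 250 bases before to 50 bases after the annotated start, 5′ to 3′ on the strand of the gene. The Mcts2 promoter (chr2:152686898-152687197, forward strand) and the Commd1 promoter (chr11:22982235-22982534, reverse strand) are shown because single CpGs in them differed among strains. Capitals mark those CpGs, 6 in Mcts2 and 3 in Commd1.
Mcts2: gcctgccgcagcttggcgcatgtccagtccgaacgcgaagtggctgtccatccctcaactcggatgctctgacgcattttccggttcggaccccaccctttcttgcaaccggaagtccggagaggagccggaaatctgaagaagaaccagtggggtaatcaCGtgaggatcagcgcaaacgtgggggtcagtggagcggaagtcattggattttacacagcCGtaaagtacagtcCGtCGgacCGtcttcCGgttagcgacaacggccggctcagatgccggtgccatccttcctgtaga
Commd1: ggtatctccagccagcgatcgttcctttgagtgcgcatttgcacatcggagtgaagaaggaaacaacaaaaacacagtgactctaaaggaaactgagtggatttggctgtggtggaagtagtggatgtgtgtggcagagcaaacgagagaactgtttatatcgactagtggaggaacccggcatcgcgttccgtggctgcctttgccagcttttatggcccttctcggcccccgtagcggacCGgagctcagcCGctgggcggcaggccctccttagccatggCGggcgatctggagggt
The Zrsr1 promoter (chr11:22971755-22972054, forward strand) is shown with all 10 of its CpGs in capitals, because its start window had strain means between 34.0 and 42.8% in all 9 strains.
Zrsr1: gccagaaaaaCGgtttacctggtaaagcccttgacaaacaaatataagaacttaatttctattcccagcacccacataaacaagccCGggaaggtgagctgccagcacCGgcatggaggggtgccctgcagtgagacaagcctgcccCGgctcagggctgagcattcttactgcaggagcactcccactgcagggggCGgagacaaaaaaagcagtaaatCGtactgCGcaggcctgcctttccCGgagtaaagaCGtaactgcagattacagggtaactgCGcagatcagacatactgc
The Nap1l5 promoter (chr6:58907077-58907376, reverse strand) and the Nnat promoter (chr2:157559828-157560127, forward strand) are shown with the sequence TGCCGC, or its reverse complement GCGGCA, in capitals. TGCCGC is known as the core of the methylated site bound by ZFP57, a protein that maintains imprints.
Nap1l5: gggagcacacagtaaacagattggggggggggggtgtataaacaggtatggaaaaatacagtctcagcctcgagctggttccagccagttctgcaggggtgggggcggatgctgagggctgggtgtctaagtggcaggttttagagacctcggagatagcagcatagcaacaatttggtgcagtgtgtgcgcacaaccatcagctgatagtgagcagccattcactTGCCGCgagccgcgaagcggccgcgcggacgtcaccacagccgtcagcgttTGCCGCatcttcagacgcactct
Nnat: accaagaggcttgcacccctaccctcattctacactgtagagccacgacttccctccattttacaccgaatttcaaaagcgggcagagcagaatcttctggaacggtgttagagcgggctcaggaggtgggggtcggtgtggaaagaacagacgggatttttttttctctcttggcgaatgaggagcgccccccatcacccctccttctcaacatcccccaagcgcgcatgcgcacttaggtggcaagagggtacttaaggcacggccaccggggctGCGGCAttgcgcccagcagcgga

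TGCCGC was searched on both strands, and it was present in 3813 of 32851 promoters of the same 300 bases, or 11.6%. Nap1l5 held 2 matches, and Mcts2, Nnat and Commd1 held 1 each. No match was found in these windows of Zrsr1, H13, Herc3, Blcap and Inpp5f, which says nothing of sequence outside them. The 2 listed positions in the Nnat match averaged 77.7% and the 2 in the Commd1 match 0.592%. A match is a description of the letters and not of binding.

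Of 1375 positions listed in any sample at the members, 750 passed the rule on listing. Their mean levels were under 10% at 304 positions, between 35 and 65% at 172, and over 90% at 111. Of the positions at 35 to 65%, 87 lay at Zrsr1, 30 at Mcts2, 32 at Nnat and 8 at Nap1l5, and none lay at Inpp5f. The rest lay in H13 and Blcap outside the inner genes. Positions listed per sample ranged from 2904787 to 3156965 over the whole genome. The files give a percent for each position and no read count, so read depth is unknown and counting error cannot be stated. Correlations between samples of a strain were lowest in C57BL/6J, at 0.949 to 0.958, against at least 0.963 in the other 8 strains.

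Levels were compared between the start of each intronic gene and the start of its host. A start window covered 1 kb either side of the annotated start and needed at least 5 positions. The comparison asks how far the methylation of the inner gene is set apart from the host's promoter in each strain. With the span start used for Herc3, and without the further start of Commd1 inside Zrsr1, the hosts' starts were at or below 12.1% in all 27 samples, and the inner starts were at or above 25.9%.

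Mcts2 (chr2:152687148-152687946) had a level of 46.0% ± 8.39 (SD, n = 27) over 42 positions. Its samples ran from 25.9% through a median of 48.0% to 64.8%. H13, which encodes a signal peptide peptidase, had a start window at 1.5% ± 1.41 (SD, n = 27), with samples from 0 to 5.73%. No sample of Mcts2 was as low as the highest sample of H13. With windows of 2 kb the H13 level was 11.3%, and Mcts2 exceeded it by 34.6 points.

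Zrsr1 (chr11:22972005-22976496) had 40.4% ± 3.67 (SD, n = 27) over 87 positions. Its lowest sample was 27.1%, its median 41.4% and its highest 45.3%, the narrowest spread among the intronic genes with a start window. The lowest value belonged to C57BL/6J replicate 1. Commd1, a regulator of copper handling and of NF-kappaB, had 3.05% ± 4.05 (SD, n = 27) at its start, with samples from 0 to 12.1%. A further annotated start of Commd1 lies inside Zrsr1, and its window shared the level of Zrsr1, at 40.3% over 96 positions, with samples from 26.6 to 45.9%.

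Nnat (chr2:157560078-157562525) had 69.8% ± 5.82 (SD, n = 27) over 44 positions, with samples from 59.6 to 79.0% around a median of 70.3%. Blcap, named for its change in bladder cancer, had 0.471% ± 0.272 (SD, n = 27) over 76 positions, with the highest sample at 1.08%. Nap1l5 (chr6:58905233-58907126) had 69.9% ± 9.37 (SD, n = 27) over 24 positions, with samples from 47.0 to 82.5% around a median of 71.3%. In these windows Nap1l5 and Nnat stood above the intermediate range of 35 to 65% on average, although Nnat fell inside it, at 56.97%, with windows of 2 kb, and they differed from each other by less than either SD.

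For Herc3, a ubiquitin ligase, the RefSeq start had only 2 listed positions, too few for a window. They averaged 86.5% ± 18.3 (SD, n = 25 samples with a value), so this start was not low like those of the other hosts. The start of its gene span, used instead after the data had been seen, lay at an island with 83 positions and a level of 0.410% ± 0.183 (SD, n = 27). The highest sample there was 0.763%. Blcap's level was higher than this by less than either SD.

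**Figure D1:**
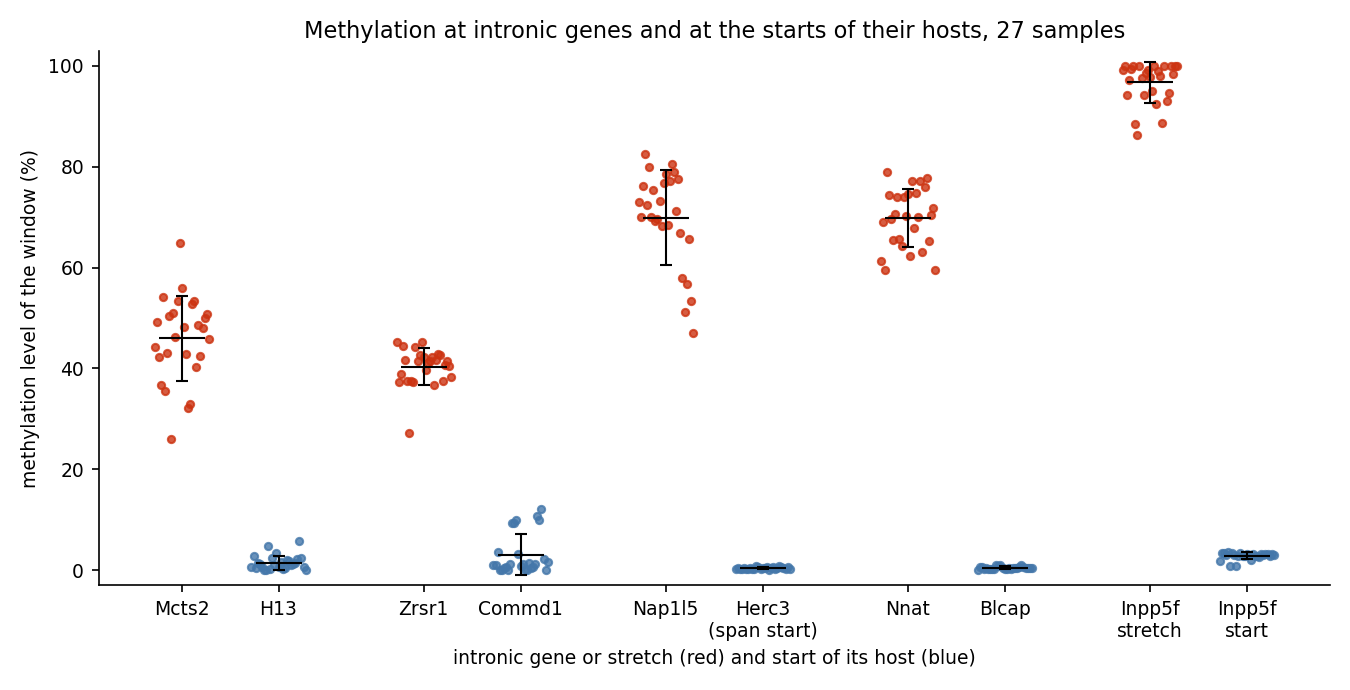
Methylation level (%) of each start window or stretch in each of 27 samples. Red points are intronic genes and the Inpp5f stretch, blue points are the starts of their hosts (the span start for Herc3, and without the start of Commd1 inside Zrsr1), and the bars give the mean and SD. All red points lie at or above 25.9% and all blue points at or below 12.1%.

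The within-sample difference, inner window minus host window, was tested with limma's moderated test over all 349 pairs of a gene nested in a protein-coding gene. A pair was called when its adjusted p was under 0.05 and the difference at least 25 percentage points. Most nested pairs met this, 211 of 349 or 60.5%, so a higher inner level is not particular to imprinted genes. Mcts2 exceeded H13 by 44.5 points ± 1.43 (SE; limma, adjusted p = 7.62e-18). Zrsr1 exceeded Commd1 by 37.3 points ± 0.614 (SE; limma, adjusted p = 2.39e-23). Nnat exceeded Blcap by 69.4 points ± 1.06 (SE; limma, adjusted p = 6.48e-24).

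Each of these differences was above 0 in 27 of 27 samples. Over the means of the 9 strains, the exact two-sided sign-flip permutation test gave p = 0.00391 for each, the smallest it allows. With starts taken from the gene spans, where 57.9% of 359 pairs were called, Nap1l5 exceeded Herc3 by 69.5 points ± 0.925 (SE; limma, adjusted p = 5.77e-25). The intermediate inner level was less common than a high inner level. An inner level of 35 to 65% with a host level under 10% was seen in 32 of 349 pairs, among them Mcts2 in H13 and Zrsr1 in Commd1.

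Inpp5f, a phosphoinositide phosphatase, had no intermediate level at its listed positions, and whether these cover its imprinted intronic stretch is not known. Its start window had 2.84% ± 0.672 (SD, n = 27) over 74 positions. The run of listed positions inside the gene with the most members (chr7:128648493-128649329, 10 positions) had 96.7% ± 3.98 (SD, n = 27), with samples from 86.3 to 100%. The last run before the 3′ end (chr7:128688048-128688347, 9 positions), looked at after the data had been seen, had 89.1% ± 3.79 (SD, n = 27), and its lowest position averaged 74.3%. Of the 25 positions inside the gene over 2 kb from its ends, a lone position averaged 15.0% and the other 24 averaged at least 74.3%. The difference between the stretch and the start was 93.9 points ± 0.815 (SE; limma, adjusted p = 1.64e-28), above 0 in 27 of 27 samples.

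Where positions were listed away from their starts and away from the inner genes, the hosts were methylated again. Positions in the body of Herc3 averaged 95.8%, those of Commd1 95.2% over 6 positions, those of Blcap 89.4% over 9 positions and those of Inpp5f 91.3% over 25. The 6 positions of Commd1 were a single run (chr11:22945246-22945477), and the 9 of Blcap lay from 2137 to 2430 bp upstream of Nnat. The bodies of Commd1 and Blcap were thus read at a single place each. H13 was the exception to these high levels, with 57.4% over 119 positions. Near its 3′ end the level fell along a single run of 81 positions. The first 22 positions (chr2:152706162-152706459) averaged 97.0%, the next 8 (chr2:152706887-152707452) averaged 55.6% and the last 51 (chr2:152707612-152708107) averaged 25.7%. Among shorter runs in H13, 6 positions (chr2:152671362-152671587) averaged 72.2% and 4 (chr2:152674936-152675211) averaged 74.8%. Thus H13 held, besides Mcts2, other places where the level was neither near 0 nor near 100%.

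The profile along each intronic gene differed between genes. At Mcts2 the 42 positions lay from 335 bp before to 66 bp after the start. At Zrsr1 the 113 positions reached from 142 bp before to 2248 bp after the start. Of these, 26 averaged under 35%, all from 215 to 988 bp after the start. The 10 positions farthest downstream in Zrsr1 averaged 49.7%. Nap1l5 had no listed position in its promoter. Of its 28 positions, 24 lay from 248 to 492 bp downstream of the start, inside the gene, with position means from 52.1 to 86.8%. The other 4 lay beyond the 3′ end of the gene (chr6:58903498-58903641) and averaged 95.5%.

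Nnat had the most uneven profile. From 20 to 54 bp after its start 9 positions averaged 88.3%, and from 196 to 400 bp 27 positions averaged 61.8%. A group of 12 positions from 1492 to 1543 bp averaged 42.3%. Upstream, the 11 positions farthest from Nnat (chr2:157557648-157558127) averaged 86.5%, and the 7 next to them (chr2:157558163-157558304) averaged 15.6%. The line between these groups was drawn where the level itself fell, so their contrast is a description. In PWK/PhJ and WSB/EiJ the 7 low positions averaged 27.9 and 30.2%, against 8.57 to 13.3% in the other 7 strains. Of the 7 positions 0 were called different among strains (limma, lowest adjusted p = 0.0686), against 4.33% of positions in the genome. An unadjusted p under 0.05 was reached at 2 of them, and with so few positions a count of 0 is no result.

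**Figure D2:**
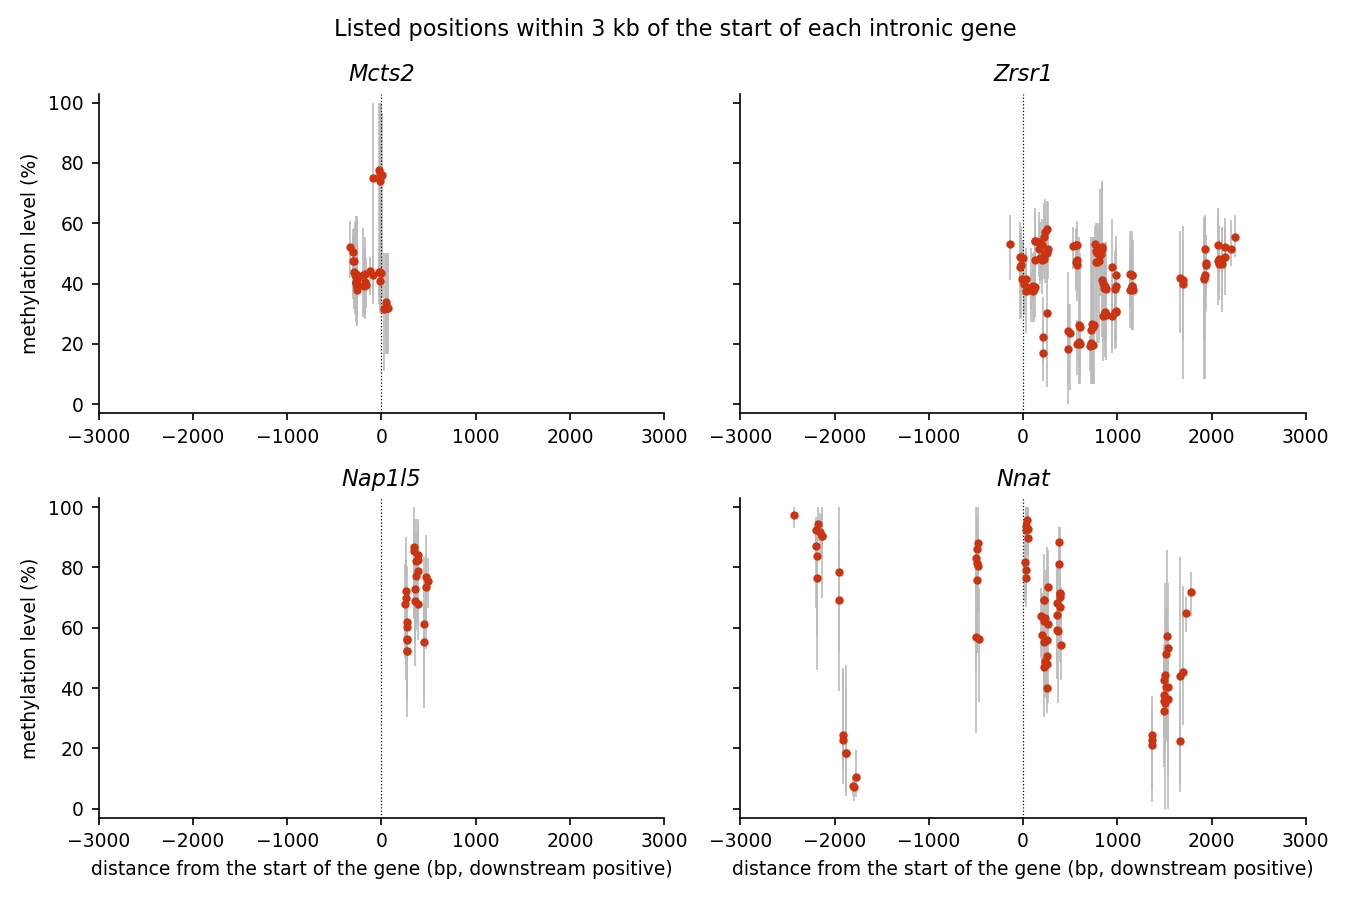
Methylation level (%) of each position within 3 kb of the start of Mcts2, Zrsr1, Nap1l5 and Nnat, against its distance (bp) from that start. The 4 positions beyond the 3′ end of Nap1l5 lie outside this range. Points are means over the samples, and grey lines run from the lowest to the highest strain mean. Zrsr1 stays between 17.0 and 58.0%, whereas Nnat spans 7.10 to 97.4%.

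Strains were compared with limma's moderated F test on the log ratio of methylated to unmethylated percent, over all 16499 start windows. A window was called with a range of strain means of 10 points or more and an adjusted p under 0.05. Among the members' windows, those of Nap1l5 and the first start of Commd1 were called, against 6.69% of all windows. Mcts2, Zrsr1, Nnat, H13, Blcap, Inpp5f, the Inpp5f stretch and the start of Commd1 inside Zrsr1 were not called. A level of 35 to 65% in all 9 strains was seen in 150 windows, or 0.909%. Mcts2 was the member among them, and Zrsr1 missed this in C57BL/6J, at 34.0%. Single positions were called with strain means 25 points or more apart and an adjusted p under 0.05. At the members 26 of 433 tested positions were called, against 4.33% of 868551 positions in the genome.

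Nap1l5 was lower in PWK/PhJ and WSB/EiJ than in the other strains. The PWK/PhJ samples were at 57.9, 51.1 and 56.7%, and the WSB/EiJ samples at 65.7, 53.5 and 47.0%. These 6 samples lay below the lowest of the other 21. NOD/ShiLtJ was highest, with samples at 77.1, 80.5 and 79.0%, followed by A/J with 82.5, 72.5 and 80.0%. DBA/2J had 76.8, 78.5 and 68.4%, and 129S1/SvImJ 72.9, 70.1 and 76.2%. The remaining strains overlapped with these. NZO/HlLtJ had 71.3, 77.7 and 66.9%, C57BL/6J 70.0, 75.3 and 69.2%, and CAST/EiJ 69.6, 73.2 and 68.3%.

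The strain means of Nap1l5 ran from 55.2% in PWK/PhJ to 78.9% in NOD/ShiLtJ, a range of 23.7 points (limma, F = 9.87, adjusted p = 0.000341). At 17 of the 24 positions the means of PWK/PhJ and WSB/EiJ were both below those of the other 7 strains. These strains were picked as the lowest over the same positions, so the count is a description and no further test. The positions lie close together, some as the strands of a single CpG, and are not independent readings. Of the 28 positions tested at Nap1l5, 4 were called, against 4.33% of positions in the genome. The position with the widest range, chr6:58906866, ran from 48.1% in PWK/PhJ to 90% in NOD/ShiLtJ (limma, adjusted p = 0.0422). That call was lost in 19 of the 27 fits that left out a sample, whereas the window's call was lost in none of them. Calls at single positions of Nap1l5 were also lost under other settings, in 4 of 8 at chr6:58906866, 4 of 9 at chr6:58906778 and 3 of 8 at chr6:58906739. Among these, leaving out C57BL/6J ended the call at chr6:58906778, and leaving out CAST/EiJ and PWK/PhJ ended all 3. The call at chr6:58906739 was also lost in 3 of the 27 fits that left out a sample. Sequence variants between strains can move single positions, and their part was not tested.

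**Figure D3:**
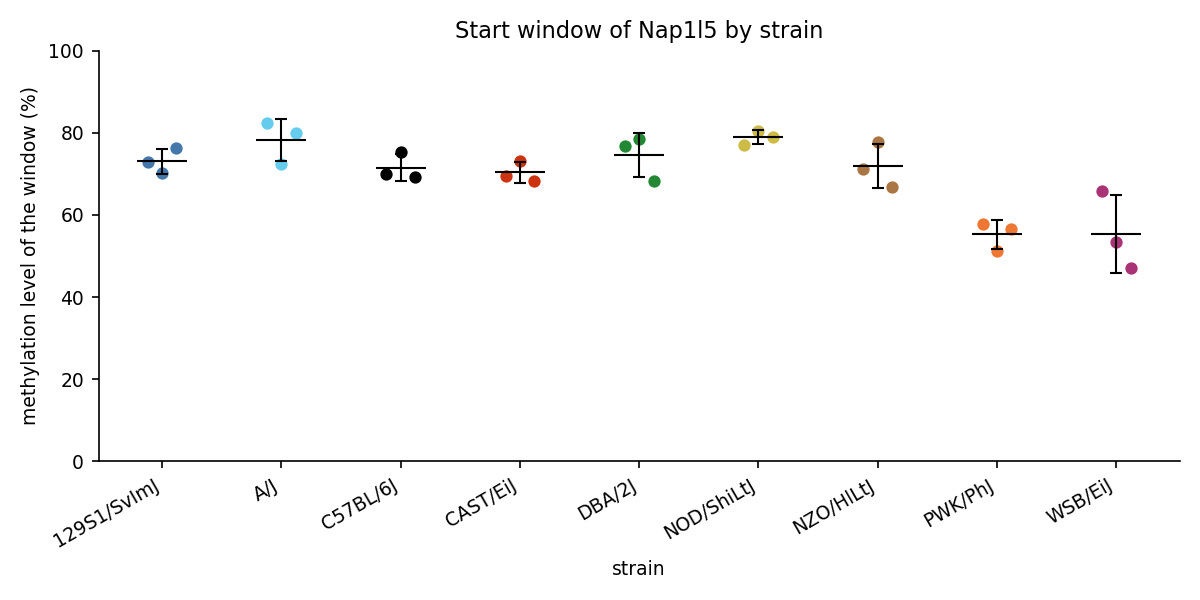
Methylation level (%) of the Nap1l5 start window in each of the 27 samples, by strain, with the mean and SD of 3 samples. The samples of PWK/PhJ and WSB/EiJ lie between 47.0 and 65.7%, and those of the other 7 strains between 66.9 and 82.5%.

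The start of Commd1 was methylated at some CpGs in CAST/EiJ and PWK/PhJ and unmethylated in the other strains. Over the whole window of 40 positions the CAST/EiJ mean was 9.56% ± 0.357 (SD, n = 3) and the PWK/PhJ mean 10.9% ± 1.04 (SD, n = 3). The other strains had means of at most 1.88%, and the range was 10.7 points (limma, F = 35.2, adjusted p = 4.02e-08). The window's call was lost when both strains were left out.

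The difference sat in 9 of the 40 positions, all of them called, between 8 bp upstream and 148 bp downstream of the start (chr11:22982136-22982292). Averaged over these 9, the CAST/EiJ samples were at 39.4, 39.6 and 40.8%, and the PWK/PhJ samples at 46.6, 44.0 and 41.1%. The highest of the other 21 samples was 3.65%, in DBA/2J. The values of these 2 strains did not overlap with the rest, but the 9 positions were selected by this same strain difference, so their average is a description and no further test. Of the 40 positions 10 were tested and 9 called, against 4.33% of positions in the genome. The 9 passed the filter on mean level only through the high values of CAST/EiJ and PWK/PhJ. Their adjusted p in limma's test, from 1.11e-08 to 8.27e-06, is therefore no support beyond the window's test.

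The 31 other positions of the window, which were set apart because they were not called or, in most cases, had a mean too low to be tested, were at 0.747% ± 0.242 (SD, n = 3) for CAST/EiJ and 1.38% ± 1.94 (SD, n = 3) for PWK/PhJ. Called and uncalled positions were interleaved: of 13 positions between the first and the last called, 4 had no strain mean above 5.54%. The 3 positions with the widest range were chr11:22982167, chr11:22982176 and chr11:22982292. At the first, PWK/PhJ was at 48.7% and CAST/EiJ at 36.0%, with all other strains at or below 2.08%. At the second the values were 48.6 and 39.2%, and at the third 48.6 and 36.9%.

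In some of these CpGs the strands went apart in those strains. Each strand of a CpG is listed as a position of its own, and the strands were compared within samples, a test added after the data had been seen. At the CpG at chr11:22982250 the forward strand had 42.4% in CAST/EiJ and 48.3% in PWK/PhJ, while the reverse strand was at 0 in all 27 samples. The difference between strands depended on strain there (limma, F = 46.6, adjusted p = 1.91e-07). It also did at the CpG at chr11:22982291 (limma, F = 31.4, adjusted p = 2.92e-06), against 0.261% of 273905 CpGs. Each of these CpGs held a position called different among strains, so the strand result is no separate support. Variants in the CAST/EiJ and PWK/PhJ genomes and the authors' alignment to a single reference were not examined, and their part in the Commd1 result was not tested.

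**Figure D4:**
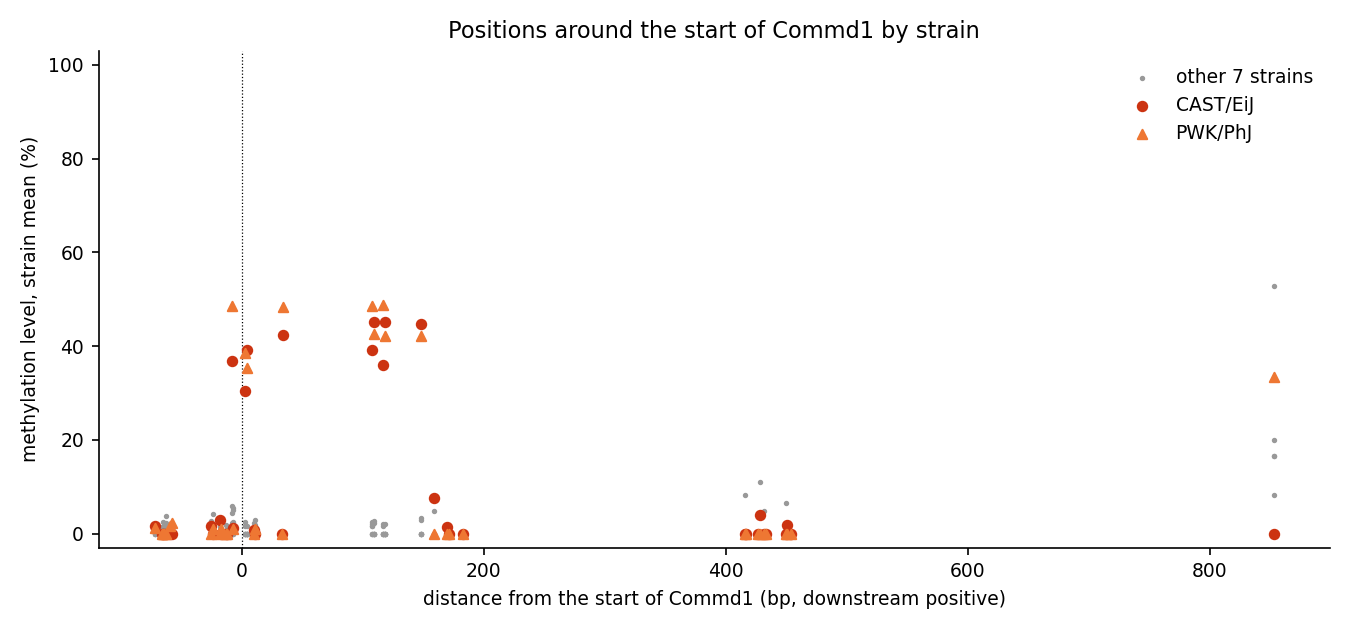
Strain means of the methylation level (%) at each listed position around the start of Commd1, against the distance (bp) from the start. CAST/EiJ and PWK/PhJ lie at 30.5 to 48.7% at 9 positions near the start, where the other 7 strains (grey) lie at or below 5.93%.

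As a window, Mcts2 was not called, but the call depended on the processing. Its strain means ran from 36.0% in NOD/ShiLtJ to 56.3% in DBA/2J, a range of 20.3 points (limma, adjusted p = 0.214). Over positions listed in all 27 samples the adjusted p in limma's test was 0.0159, past the threshold. The SD within strains was 7.25 points. Single positions at Mcts2 did differ: 6 of 42 tested were called, against 4.33% of positions in the genome. All 6 lay in the CpGs marked in capitals in the promoter above, from 88 bp upstream to the base after the start, and all 6 were the reverse strand of their CpG.

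Over these 6 positions the strains fell far apart, with 98.2% ± 0.907 (SD, n = 3) in CAST/EiJ, 98.1% ± 1.79 (SD, n = 3) in DBA/2J and 95.0% ± 2.86 (SD, n = 3) in 129S1/SvImJ. NZO/HlLtJ followed with 90.6% ± 6.07, WSB/EiJ with 90.3% ± 13.2 and PWK/PhJ with 84.9% ± 18.3 (SD, n = 3 each). A/J had 56.1% ± 13.1, NOD/ShiLtJ 35.05% ± 12.6 and C57BL/6J 33.4% ± 14.7 (SD, n = 3 each). These 6 were selected by the strain test, so the average describes them only. The 36 positions not called had strain means within 13.2 points of each other and 41.0% over all samples. The 6 positions lie close together and are not independent readings.

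At 5 of the 6 CpGs the forward strand was listed as well. The CpG at chr2:152687119 had 43.7% on the forward and 77.5% on the reverse strand, a difference of 33.8 points ± 2.81 (SE; limma, adjusted p = 5.38e-08), above 0 in 22 of 27 samples. The other 4 differed by 32.0 to 33.2 points in the same direction. Differences of at least 25 points between strands were called at 0.425% of 273905 CpGs. The difference depended on strain at all 5, with limma adjusted p from 0.00352 to 0.0158, against 0.261% of CpGs in the genome. These 5 were picked because the strain test had called their reverse strand, so this is no separate support. They also lie close together and are not independent readings.

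Averaged over the 5 CpGs, the forward strand ran from 26.2 to 70.7% over the 27 samples, and strain means from 34.7% in NOD/ShiLtJ to 47.9% in NZO/HlLtJ. The reverse strand was at 37.5, 43.6 and 16.7% in C57BL/6J and at 27.8, 27.3 and 50% in NOD/ShiLtJ. In A/J it was at 54.0, 71.2 and 45.5%. In NOD/ShiLtJ the means of the reverse and the forward strand were 35.03 and 34.7%, and in C57BL/6J 32.6 and 46.9%, so the reverse strand was lower on average in C57BL/6J and within 0.345 points of the forward strand in NOD/ShiLtJ. The NOD/ShiLtJ samples differed in direction, with the reverse strand higher by 11.9 points in replicate 3 and lower in the other two. In the other 6 strains the reverse strand was high: 93.3, 97.2 and 96.0% in 129S1/SvImJ, 96.7, 100 and 98.8% in CAST/EiJ, and 100, 98.6 and 98% in DBA/2J. NZO/HlLtJ had 86.7, 86.4 and 97.1%, PWK/PhJ 97.1, 63.3 and 93.3%, and WSB/EiJ 97.1, 97.8 and 73.3%. The lowest PWK/PhJ sample lay below the highest A/J sample, so those strains overlapped. The part of strain variants and of fragment ends in this strand difference was not tested.

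**Figure D5:**
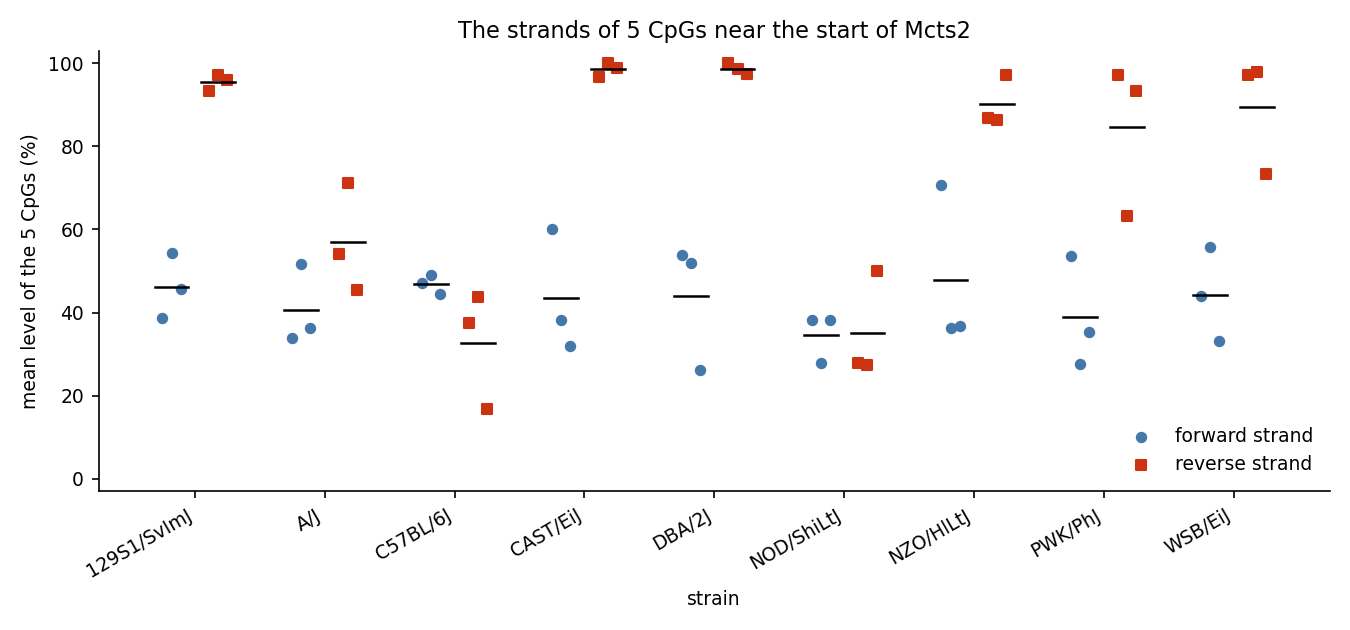
Mean methylation level (%) of 5 CpGs near the start of Mcts2 on the forward (blue circles) and reverse (red squares) strand, by strain, with 3 samples each and black lines at the means. The reverse strand is at or above 63.3% in 6 strains and at or below 71.2% in A/J, C57BL/6J and NOD/ShiLtJ.

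Zrsr1 had the narrowest range of strain means among the 4 intronic genes with a start window. Its strain means ran from 34.0% ± 5.91 (SD, n = 3) in C57BL/6J to 42.8% ± 1.45 (SD, n = 3) in CAST/EiJ, a range of 8.83 points that did not pass (limma, adjusted p = 0.266). C57BL/6J set the lower end: the range was 5.41 points without C57BL/6J replicate 1 and 2.70 points without all C57BL/6J samples. Of 113 tested positions 0 were called with limma, against 4.33% of positions in the genome, and 6 had an unadjusted p under 0.05. A single CpG of Zrsr1, at chr11:22972581, differed between strands by 28.1 points ± 4.68 (SE; limma, adjusted p = 0.000992), and that difference did not depend on strain (limma, adjusted p = 0.994).

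Nnat had a strain range of 11.04 points (limma, adjusted p = 0.596), and 2 of its 73 tested positions were called. That share is under the 4.33% called over all positions, so the count is no result about Nnat. Both lay 3′ of the window, at chr2:157561589 and chr2:157561620, and were at 0 in A/J and at 75.0% in C57BL/6J. In C57BL/6J both rested on 2 samples, at 100 and 50%. Both calls were lost in some fits that left out a sample, in 3 of 27 and in 18 of 27, and under other settings in 2 of 8 and in 5 of 8.

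In H13 outside Mcts2, 5 of 110 tested positions were called, a share near the 4.33% called over all positions, so the count is no result about H13. At chr2:152671378 DBA/2J was lowest, with 25, 33.3 and 50%, and PWK/PhJ highest, with 100, 90 and 100% (limma, adjusted p = 0.00793). The other 4 lay in the 3′ run, with WSB/EiJ lowest at 3 of them. At chr2:152707706 the WSB/EiJ samples were at 18.2, 50 and 25% and the NZO/HlLtJ samples at 83.3, 100 and 100% (limma, adjusted p = 0.0207). That CpG also differed between strands, with the reverse strand lower by 33.4 points ± 3.87 (SE; limma, adjusted p = 8.56e-06). Outside the inner genes, 0 of 20 tested positions of Herc3, 0 of 11 of Blcap and 0 of 24 of Inpp5f were called with limma. An unadjusted p under 0.05 was reached at 1, 0 and 2 of them.

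Of the host starts other than Commd1, Blcap had an adjusted p of 0.0289 in limma's test, with a strain range of 0.719 points, far under the minimum for a call. H13 and Inpp5f had ranges of 2.31 and 0.800 points (limma, adjusted p = 0.848 and 0.943). Single samples moved these ranges: H13's was 1.07 points without PWK/PhJ replicate 1, and Inpp5f's was 1.29 points without A/J replicate 2 and nearly as wide without C57BL/6J replicate 1. At the span start of Herc3 strain means ran from 0.307% in A/J to 0.586% in CAST/EiJ.

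Related genes gave a frame for these levels. Of 12 other genes with a maternally methylated imprint, 8 had a start window, with 11 windows in all, of which 2 at Mest held the same positions. The median level was 39.3%, against 1.19% over all windows, and 9 of the 11 averaged 35 to 65%. The intermediate levels of Mcts2 and Zrsr1 lay within the span of these 9. Nap1l5 and Nnat, at 69.9 and 69.8%, lay above all 11, of which the highest was Mest at 54.8%. In this list 1 window was called different among strains, against 6.69% of all windows, so the count is no result about the list. It was at Mest, with strain means from 36.5 to 86.1% (limma, adjusted p = 1.47e-05). The 2 windows outside 35 to 65% were both low, at 2.76% for Grb10 and 4.81% for a further start of Slc38a4.

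X-linked relatives of the retrogenes were also measured, since female mice methylate the start of many X-linked genes on the inactive copy. Mcts1, Zrsr2 and Nap1l3 had start windows, at 26.5% ± 4.84, 22.05% ± 3.96 and 10.6% ± 3.84 (SD, n = 27 each). Their 4 windows, of which the pair at Mcts1 held the same positions, were called different among strains, against 6.69% of all windows. The ranges were 10.1 to 10.8 points, just over the minimum of 10 for a call, with limma adjusted p from 0.00126 to 0.0425. The means of Mcts1 and Zrsr2 lay below those of their autosomal copies Mcts2 and Zrsr1, a difference that was not tested.

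Start windows of marker genes were low for each cell type with a window. The 4 hepatocyte genes with a window had a median of 4.73% over 5 windows, with Hnf4a counted at both its starts, the endothelial Kdr had 3.13%, the 3 stellate genes 0.628 to 13.6% and the cholangiocyte Epcam 11.4%. Epcam was called different among strains, with strain means from 5.59 to 16.0% (limma, adjusted p = 7.22e-05). No leukocyte marker had a window. With low levels in each list, these windows could not tell the cell types apart, and the part of other liver cells in the levels above was not tested.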

How the data were processed

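Per the file headers, the authors deposited for each sample a list of single positions with a percent methylation from 0 to 100, with no read counts. Per the submitters' processing notes, the tools were Trim Galore 0.6.3, Bowtie2 and Bismark 0.22, and the build was GRCm38 (mm10); the coverage filter behind the lists is not given in the sources used here. Per the labels' protocols, DNA was cut with MspI before bisulfite treatment. Of 302684 listed positions inside RefSeq promoters, 302570 fell on a CpG, which set the numbering of the coordinates.

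The strain in each label set the group, with 3 biological replicates per strain. Gene spans and starts were those of RefSeq GRCm38.p6, and all 9 members matched by symbol. Window levels are means over positions listed in at least 2 of 3 samples of every strain. Strain tests used log2((percent + 5)/(100 - percent + 5)), and single positions were tested at mean levels of 2.5 to 97.5%. Pair tests used percentage points. The moderated tests of limma were computed in Python 3.11.15 (numpy 2.4.6, scipy 1.17.1, pandas 2.3.3) with Benjamini-Hochberg adjustment over all 16499 windows, 349 pairs, 868551 positions or 273905 CpGs. A comparison with limma 3.58.1 in R 4.3.3 covered all windows and pairs and 30000 positions listed in all samples, and 0 features fell on different sides of the threshold. The tests were also tested on simulated data. Figures were drawn with matplotlib 3.10.9.

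The members and the gene lists were chosen with earlier results of these data known. The rule for naming was the 9 members in every comparison, at most the 3 called positions with the widest range per member, and lists of maternally methylated imprinted promoters, X-linked relatives and cell type markers (hepatocyte, leukocyte, endothelial, stellate, cholangiocyte). Other positions are named because a sentence singles them out, and were chosen after their values were seen. The fixed comparison of Nap1l5 with the RefSeq start of Herc3 gave no value. Alternatives changed the window size, the listing rule, the minimum of positions, the treatment of strands, the log offset, the thresholds and the samples included. Strain genomes were not used here.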

Additional observations from a re-analysis of the deposited data

Results flagged for a closer look

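The difference between Zrsr1 and the start of Commd1 differed among strains (limma's moderated F test of the within-sample difference, F = 5.31, adjusted p = 0.00715), as did 26.4% of the 349 nested pairs. Strain means of the difference ran from 29.4 to 41.0 points. The PWK/PhJ samples were at 31.9, 27.6 and 28.6 points and the CAST/EiJ samples at 35.01, 31.9 and 32.7. C57BL/6J replicate 1, at 26.6 points, was the lowest sample of all. The Commd1 window was called different among strains and the Zrsr1 window was not.

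The difference between Nap1l5 and the span start of Herc3 also differed among strains (limma's moderated F test, F = 10.1, adjusted p = 0.000158), as did 28.1% of the 359 pairs with span starts. The PWK/PhJ samples were at 57.1, 50.6 and 56.3 points and the WSB/EiJ samples at 65.4, 52.9 and 46.8, against at least 66.6 points in the other 21 samples. In both cases the difference was above 0 in every sample.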

How the results depend on the processing

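Of 1300 alternative values, 1220 kept both direction and call, 64 lost a call, 3 gained a call, 13 moved and 0 reversed. The number of pairs called higher inside was 133 with windows of 500 bp, 102 with at least 10 positions and 563 with whole spans. Nap1l5 minus Herc3, which had no value with the RefSeq start, was 69.5 points with the span start and 65.2 with windows of 2 kb. Zrsr1 minus Commd1 had no value with span starts and was 37.6 points with windows of 2 kb. Windows called were 3181 with no minimum range, 360 with at least 25 points and 532 without CAST/EiJ and PWK/PhJ. With the minimum of 25 points neither the Nap1l5 window nor the Commd1 window was called. Without those strains, 12678 positions were called in the genome and 8 at the members, against 37643 and 26. With windows of 2 kb the levels were 11.3% at H13, 56.97% at Nnat and 5.16% at Inpp5f, and Inpp5f was at 0.436% with 500 bp and 1.74% over positions listed in all 27 samples. The causes of these changes were not tested, except that fewer samples or other position sets enter by construction.

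Leaving out each sample in turn, Zrsr1 minus Commd1 stayed at 37.0 to 37.7 points, Mcts2 minus H13 at 43.8 to 45.4, Nnat minus Blcap at 69.0 to 69.8 and the Inpp5f difference at 93.3 to 94.2. Pairs called were 209 to 211, windows called 1029 to 1102, positions called 33679 to 39181 and member positions called 22 to 29. Among the results followed in these fits, 43 calls were lost, all at single positions of Nap1l5 and Nnat. The single positions followed were the called ones with the widest range at Mcts2, Nap1l5, Commd1 and Nnat. The other called positions, among them those of H13 outside Mcts2, entered only the counts, so whether each kept its call was not tested. The Nap1l5 window kept its call (limma, adjusted p at most 0.00153).

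With the replicate number of the labels as a block, Mcts2 was called different among strains (limma, adjusted p = 0.0190, against 0.214 without it), as it was over positions listed in all 27 samples (limma, adjusted p = 0.0159). Windows called were 960, member positions called 21, and Zrsr1 minus Commd1 37.0 points. Samples with the same number did not deviate together: the median correlation of their deviations was 0.000713 over 76 pairs, 0 pairs exceeded 0.1, and 2 of 27 samples correlated best with their own number. The labels give these numbers as biological replicates, and whether they mark a shared effect at Mcts2 was not tested. Depth is unknown, so low coverage cannot be told apart from true spread at single positions.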
